A study of Homo sapiens with 16 samples.

Results

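Deubiquitinase (DUB) genes encode the proteases that take ubiquitin off other proteins. The genes described here are those of the ubiquitin-specific protease family (symbols of USP and a number, with CYLD), the OTU family (OTUB and OTUD genes), the ubiquitin C-terminal hydrolases (UCHL1, UCHL3, UCHL5 and BAP1) and the Josephin family (ATXN3, JOSD1 and JOSD2), chosen by symbol alone. They were 68 of the 26258 genes in the expression table, with 51 genes of the USP, 10 of the OTU, 4 of the UCH and 3 of the Josephin family. Antisense genes and 1 Y-linked gene were left out, and so were USP6NL and 25 USP17L genes that together held 5 reads.

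Ubiquitin is attached to a protein by ligases, often as a chain that sends the protein to the proteasome, and a DUB edits or removes the chain. In normal oxygen, prolyl hydroxylases mark the transcription factor HIF1α, the VHL ligase ubiquitylates it and the proteasome destroys it, so that a DUB acting on HIF1α can keep it in the cell. The study asked which DUB does so in hepatocellular carcinoma (HCC) cells that have become resistant to Sorafenib, a kinase inhibitor used against HCC. RNA levels do not report the activity of these enzymes.

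RNA sequencing of poly(A) RNA was available for 16 libraries, 2 in each of 8 groups. Both cell lines, Huh7 and Hep3B, come from human HCC, and each was present as untreated parental cells, as cells labeled DMSO (the solvent), whose treatment tag also reads untreated, and as resistant cells of the kinds IR and CR. IR cells had been raised in increasing concentrations and CR cells in a constantly high concentration of Sorafenib, and both kinds are labeled as kept in 7 μM of the drug. Parental and DMSO cells therefore differed from the resistant cells in the drug present as well as in their history, and the effect of the drug in the medium and that of acquired resistance cannot be told apart. The study's methods state biological triplicates, where 2 libraries a group were analysed here. No source says whether these came from separate cultures or how many times each resistant line was derived, so that p-values may measure technical spread only. In bulk RNA, fewer cells that express a gene and less RNA per cell cannot be told apart.

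Each library held between 46613302 and 76860251 reads. Values are read counts scaled to the library total (CPM). A library with 0 reads of a gene is compatible with up to 3, a limit that reflects counting error alone. Markers of hepatocytes, 7 genes with ALB and AFP among them, summed to 8829 to 12180 CPM in Huh7 parental and 13340 to 15120 CPM in Hep3B parental libraries. In DMSO libraries they summed to 18720 and 25030 CPM (Huh7) and 23160 and 27600 CPM (Hep3B). They were lower than in parental cells in every resistant library, at 85.0 to 2474 CPM in Huh7 and 1028 to 8315 CPM in Hep3B cells. The endothelial markers PECAM1, CDH5, VWF and KDR summed to at most 6.36 CPM in any library. The 6 fibroblast markers summed to 313 to 787 CPM in Huh7 and 42.5 to 101 CPM in Hep3B libraries, with 0 to 3 of the 6 under 1 CPM in Huh7 and 2 to 4 in Hep3B. The 4 leukocyte markers summed to 7.53 to 10.9 CPM in parental, 6.69 to 33.8 CPM in DMSO and 27.9 to 73.3 CPM in resistant libraries, with 1 to 3 of the 4 under 1 CPM. The 10 hypoxia-induced genes differed between the DMSO replicates of each line, with sums of 1215 CPM in replicate 2 but 428 CPM in replicate 1 of Huh7 DMSO cells, and of 266.5 CPM in Hep3B DMSO replicate 1 and 565 CPM in replicate 2. In the other Hep3B groups the same genes summed to 254 and 263 CPM (parental) and to 596 to 613 CPM (resistant), and in those of Huh7 to 321 and 385 CPM (parental) and 445 to 671 CPM (resistant). The part of these differences in the results below was not tested.

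UCHL1, a small hydrolase best known from neurons that keeps free ubiquitin available, had the highest level of the DUB genes per length in all 8 groups. On a scale of CPM per kilobase of the canonical transcript, it lay at a mean of 325 in Huh7 parental and 168 in Hep3B parental cells. USP22, the DUB of the SAGA chromatin complex, had 82.8 in Huh7 parental and 107 in Hep3B parental cells. UCHL3, a near relative of UCHL1, reached 87.7 on this scale in Huh7 parental cells, between UCHL1 and USP22. The summed level of all 68 genes ranged from 4774 to 5855 CPM over the libraries, so that the set as a whole took a similar share of the reads everywhere. Within it, the UCH family went from 372 and 377 CPM in Hep3B parental to 560 and 565 CPM in Hep3B-IR and 882 and 826 CPM in Hep3B-CR libraries, which was mostly UCHL1.

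Of the 68 genes, 62 reached 1 CPM in at least 2 libraries and were tested. The other 6 were USP29, OTUD6A, OTUD7A, USP26, USP50 and USP51. USP29, the DUB that the study follows as a stabilizer of HIF1α, had 17 reads in all 16 libraries together, with 0 to 2 reads in each. Both Hep3B parental libraries held 0 reads of USP29 and so did Huh7-IR replicate 2, while the other resistant libraries held 1 or 2, at most 0.0268 CPM. A change of USP29 mRNA with resistance was not detectable at this depth. By quantitative RT-PCR the study reported unchanged USP29 mRNA in resistant Huh7 cells. By immunoblot it reported more USP29 protein in the resistant cells of both lines than in parental ones. OTUD6A had 3 reads in all, USP26 had 7, OTUD7A had 37 and USP50 had 82. USP51, a histone deubiquitinase, had 0 reads in each of the 8 Huh7 libraries. In Hep3B it had 36 reads in each DMSO library, 6 in each parental library and 2 to 7 reads in the 4 resistant libraries.

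To compare groups, log2(CPM + 1) of 15019 genes was fitted by limma with all 16 libraries in 1 model. Called genes had a Benjamini-Hochberg adjusted p under 0.05 and moved by 0.58 or more on the log2 scale, which understates the changes of low genes. Both resistant lines of a cell line share their 2 parental libraries, so their results are not independent. For each gene the model used 1 spread for all groups. Replicate differences over all tested genes had an SD of 0.566 in Huh7-IR and 0.571 in Huh7 DMSO cells on the log2 scale. In the other groups it was 0.236 to 0.311, so the SE and adjusted p of Huh7-IR comparisons may be too small. In Huh7-IR cells 24 of the 62 DUB genes were called, where 48.8% of all genes were called. Of the 24, 13 were higher and 11 lower, against 31.1% and 17.8% of all genes. In Huh7-CR cells 12 were called (34.5% of all genes), 6 higher (20.9%) and 6 lower (13.6%). In Hep3B-IR cells 15 were called (27.1% of all genes), 7 higher (15.7%) and 8 lower (11.4%). In Hep3B-CR cells 12 were called (32.2% of all genes), 8 higher (20%) and 4 lower (12.3%). DUB genes were thus called in 38.7%, 19.4%, 24.2% and 19.4% of cases in the same order, which is below the share of all genes in each comparison. Hep3B-IR cells came nearest to that share. Genes called lower in IR cells were near it, at 17.7% against 17.8% in Huh7 and 12.9% against 11.4% in Hep3B. The shares of all genes were not limited to protein-coding genes or matched for level, and the difference was not tested. Of the 62 genes, 32 were called in at least 1 of the 4 comparisons, or 51.6%, against 68.3% of all genes.

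The median log2 fold change of the 62 genes was 0.13 in IR and 0.013 in CR cells of Huh7, beside 0.19 and 0.066 for all genes. For Hep3B it was 0.15 in IR and 0.081 in CR cells, beside 0.061 and 0.11. Library scaling moved the median of all genes in Huh7-IR cells from 0.192 to 0.0399 with TMM factors and to 0.00347 with quantile normalization, and in Hep3B-CR cells from 0.108 to 0.0191 and -0.00382. The split of higher and lower DUB genes moved with it. In Huh7-IR cells it was 8 to 13 with TMM factors or edgeR, 9 to 13 with DESeq2 and 7 to 11 with quantile normalization. In Hep3B-CR cells it was 7 to 7 with quantile normalization and 7 to 6 with edgeR or DESeq2, and in Huh7-CR cells 6 to 9 with edgeR. The heat map of all 62 genes shows which of them were called where.

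**Figure D1:**
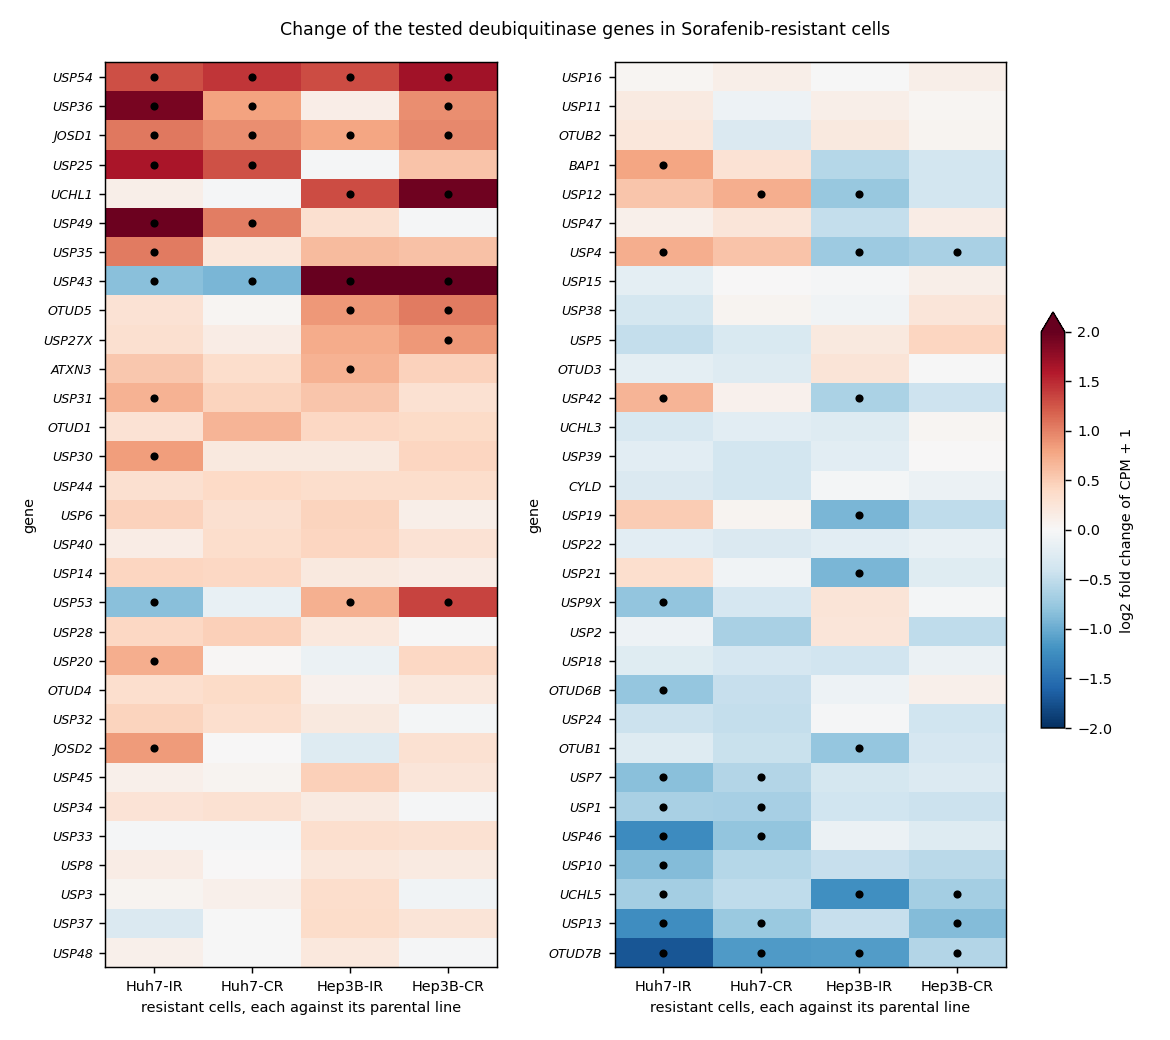
Log2 fold change of CPM + 1 for the 62 tested deubiquitinase genes (rows, ordered by their mean over the columns) in each resistant line against its parental line (columns, 2 libraries a group); color gives the size and a black dot a called change. USP54 and JOSD1 carry 4 dots on the red side and OTUD7B 4 on the blue side, and USP43 is blue in Huh7 and red in Hep3B cells.

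JOSD1 and USP54 were higher in all 4 resistant lines, as were 5.28% of all genes, and OTUD7B was lower in all 4, as were 2.88% of all genes. JOSD1 is a Josephin-domain enzyme found at membranes. USP54 carries a USP domain and has long been listed among the members without clear protease activity. OTUD7B (Cezanne) cleaves ubiquitin chains built during mitosis and acts in NF-κB signaling, and it has been described as an enzyme that acts on HIF1α.

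The sequences around the start sites of these genes are shown because they were the only DUB genes called the same way in all 4 lines, and because the study concerns HIF1α. They are from RefSeq on GRCh38.p14, from 250 bases before to 50 bases after the first start listed for each gene, in the direction of transcription. Capitals mark the HIF core motif, ACGTG or GCGTG, searched on both strands, and the reverse complement is therefore also in capitals. The windows are chr1:150010677-150010976 (minus strand) for OTUD7B, chr10:73591293-73591592 (minus strand) for USP54 and chr22:38701354-38701653 (minus strand) for JOSD1.
OTUD7B: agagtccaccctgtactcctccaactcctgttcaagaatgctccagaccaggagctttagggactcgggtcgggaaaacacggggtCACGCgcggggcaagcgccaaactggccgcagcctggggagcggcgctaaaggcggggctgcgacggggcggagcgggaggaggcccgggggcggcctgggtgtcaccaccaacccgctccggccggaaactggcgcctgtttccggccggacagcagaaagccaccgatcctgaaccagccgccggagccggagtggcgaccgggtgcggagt
USP54: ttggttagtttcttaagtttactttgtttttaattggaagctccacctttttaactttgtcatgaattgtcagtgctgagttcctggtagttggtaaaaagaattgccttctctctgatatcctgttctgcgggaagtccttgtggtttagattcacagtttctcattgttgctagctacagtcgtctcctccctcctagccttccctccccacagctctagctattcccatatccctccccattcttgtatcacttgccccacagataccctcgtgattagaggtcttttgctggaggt
JOSD1: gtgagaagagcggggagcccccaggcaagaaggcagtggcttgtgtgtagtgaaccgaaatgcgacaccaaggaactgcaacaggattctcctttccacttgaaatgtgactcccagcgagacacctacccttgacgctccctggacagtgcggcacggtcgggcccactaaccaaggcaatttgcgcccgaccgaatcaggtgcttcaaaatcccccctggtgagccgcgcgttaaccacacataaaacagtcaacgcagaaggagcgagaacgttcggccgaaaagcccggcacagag
OTUD7B held 1 match, and USP54 and JOSD1 held 0 in these windows, where USP54 lists 4 starts, JOSD1 2 and OTUD7B 1. Of 27195 genes with a window, taken at the first start listed for each, 48.4% held at least 1 match. Of the 53 DUB genes with a window, 38 did, or 71.7%. The 27195 genes were not limited to protein-coding genes, as the DUB genes were, and base composition was not matched. The 2 shares are therefore of unlike sets, and their difference was not tested. A match is a description of the letters and not a site of binding.

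JOSD1 (chromosome 22, 39081548 to 39097561 in GRCh37) lay at 113 and 93.9 CPM in Huh7 parental, 255 and 181 CPM in Huh7-IR and 211 and 185 CPM in Huh7-CR libraries. All 4 resistant Huh7 libraries lay above both parental ones, and Huh7 DMSO replicate 2, with 169 CPM, came close to them while replicate 1 had 109 CPM. In Hep3B it lay at 133 and 104 CPM in parental, 219 and 191 CPM in IR and 249.5 and 213 CPM in CR libraries, again without overlap. JOSD1 rose by 1.06 (IR) and 0.93 (CR) on the log2 scale in Huh7 and by 0.79 (IR) and 0.96 (CR) in Hep3B cells (SE 0.22). Their limma adjusted p were 0.00135, 0.00489, 0.0157 and 0.00451. Against the DMSO libraries the Huh7 values were 0.66 for IR and 0.53 for CR cells, where the latter call was lost (limma adjusted p = 0.0678). In Hep3B the call was also lost without parental replicate 2, at 0.61 in IR and 0.78 in CR cells, and without Hep3B-IR replicate 1, at 0.69.

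USP54 (chromosome 10, 75257296 to 75385875) rose from 40.8 and 37.2 CPM in Huh7 parental to 85.0 and 110.3 CPM in Huh7-IR and 112 and 101 CPM in Huh7-CR libraries. In Hep3B it rose from 25.1 and 18.6 CPM to 65.9 and 45.4 CPM in IR and 66.7 and 77.0 CPM in CR libraries. Resistant and parental libraries did not overlap in either line, and the DMSO libraries, at 40.8 and 47.3 CPM in Huh7 and 20.45 and 18.2 CPM in Hep3B, lay near the parental ones. USP54 rose by 1.29 (IR) and 1.43 (CR) on the log2 scale in Huh7 and by 1.30 (IR) and 1.68 (CR) in Hep3B cells (SE 0.20), with limma adjusted p of 0.000181, 0.000154, 0.000453 and 6.6e-05. An antisense gene on the opposite strand, PPP3CB-AS1, covers 23.3% of the exons of USP54, and whether the counting used the strand is not given in the sources used here.

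OTUD7B (chromosome 1, 149909705 to 149982675) fell from 139 and 174 CPM in Huh7 parental to 53.9 and 40.2 CPM in Huh7-IR and 66.1 and 75.3 CPM in Huh7-CR libraries. In Hep3B it fell from 92.2 and 103 CPM to 44.2 and 44.7 CPM in IR and 60.2 and 69.2 CPM in CR libraries. No resistant library reached a parental one of its line, and the DMSO libraries were at 187 and 152 CPM in Huh7 and at 101 and 99.6 CPM in Hep3B cells. The log2 fold changes of OTUD7B were -1.72 (IR) and -1.13 (CR) in Huh7 and -1.11 (IR) and -0.58 (CR) in Hep3B cells (SE 0.17), with limma adjusted p of 5.1e-06, 0.000219, 0.000358 and 0.0151. The Hep3B-CR value was at the threshold, and the call was lost without Hep3B parental replicate 2, at -0.51, without Hep3B-CR replicate 1, at -0.49, and with a pseudocount of 4 CPM, at -0.56.

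**Figure D2:**
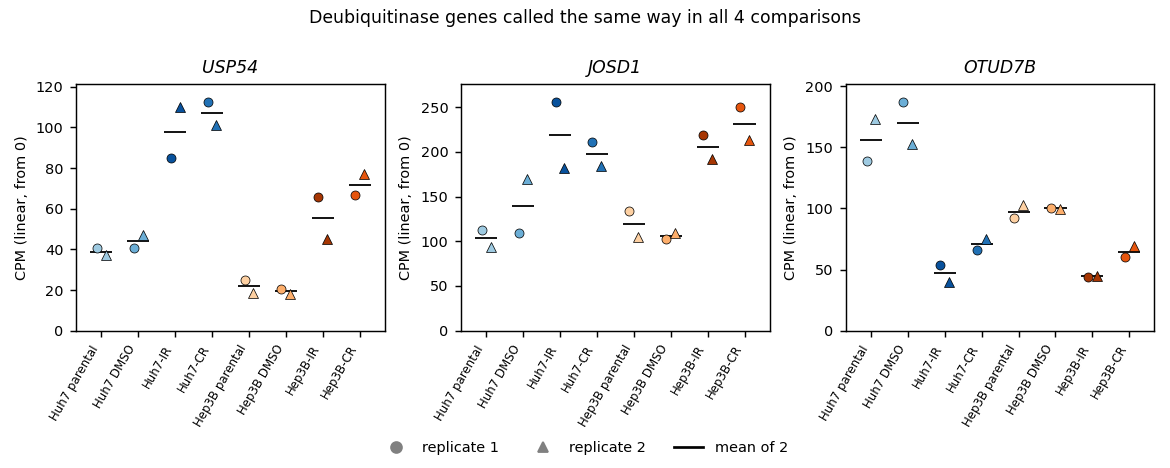
CPM (linear axis from 0) of USP54, JOSD1 and OTUD7B in all 16 libraries by group; circles and triangles are replicates 1 and 2 and lines the mean of 2. The resistant libraries of both lines lie above the parental ones for USP54 and JOSD1 and below them for OTUD7B, and Huh7 DMSO replicate 2 of JOSD1 stands at 169 CPM.

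The study tested a panel of DUBs linked to HIF1α by siRNA, made of USP8, USP28, USP29, USP36, USP37 and UCHL1. Its screens used HLE cells, another HCC line, and measured HIF1α protein and cleaved PARP, a mark of cell death. Knockdown of USP29 had the strongest effect, and the study reported similar results for cell death in Hep3B and Huh7 cells. The values below are of RNA. Apart from USP29, the mRNA of the panel genes was well above the limit of detection. USP36 and UCHL1 were the only panel genes called in any of the 4 comparisons. USP36, a nucleolar enzyme that stabilizes MYC, rose from 41.3 and 33.6 CPM in Huh7 parental to 162 and 123 CPM in Huh7-IR and 72.0 and 60.3 CPM in Huh7-CR libraries. In Hep3B it was at 29.5 and 28.2 CPM in parental, 34.0 and 29.4 CPM in IR and 52.3 and 59.96 CPM in CR libraries, so that CR libraries stood apart and IR libraries did not. USP36 had log2 fold changes of 1.89 (IR) and 0.81 (CR) in Huh7 and of 0.13 (IR) and 0.93 (CR) in Hep3B cells (SE 0.18), with limma adjusted p of 4.3e-06, 0.00345, 0.638 and 0.00154.

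UCHL1 (chromosome 4, 41258430 to 41270472) was at 363 and 354 CPM in Huh7 parental, 388 and 385 CPM in Huh7-IR and 393 and 318 CPM in Huh7-CR libraries. In Hep3B it was at 176 and 195 CPM in parental, 455 and 466 CPM in IR and 753 and 686 CPM in CR libraries. The 3 Hep3B groups did not overlap, the Huh7-IR libraries lay slightly above the parental ones, and the Huh7-CR libraries lay on both sides of them. The log2 fold changes of UCHL1 were 1.31 (IR) and 1.95 (CR) in Hep3B (SE 0.13), with limma adjusted p of 1.9e-05 and 9.5e-07, while Huh7 had 0.11 (IR) and -0.019 (CR), with limma adjusted p of 0.497 and 0.938. The Hep3B DMSO libraries, at 119 and 131 CPM, lay below both parental ones, a difference that missed the threshold (log2 fold change -0.56, limma adjusted p = 0.0566).

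USP8, an endosomal DUB, had log2 fold changes between 0.0037 and 0.22 in the 4 comparisons. Against the DMSO libraries it was called in Huh7-IR cells (0.59, limma adjusted p = 0.00212) and had 0.44 in Huh7-CR cells. USP28, known for MYC and the DNA damage response, had 0.42 (IR) and 0.48 (CR) in Huh7, where it went from 21.3 and 22.1 CPM in parental to 33.3 and 25.8 CPM in IR and 32.2 and 29.1 CPM in CR libraries. These values of USP28 had limma adjusted p of 0.0248 and 0.018 and stayed under the fold threshold. USP37, a cell cycle DUB, was between -0.30 and 0.37 and passed in none of the 4 comparisons.

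**Figure D3:**
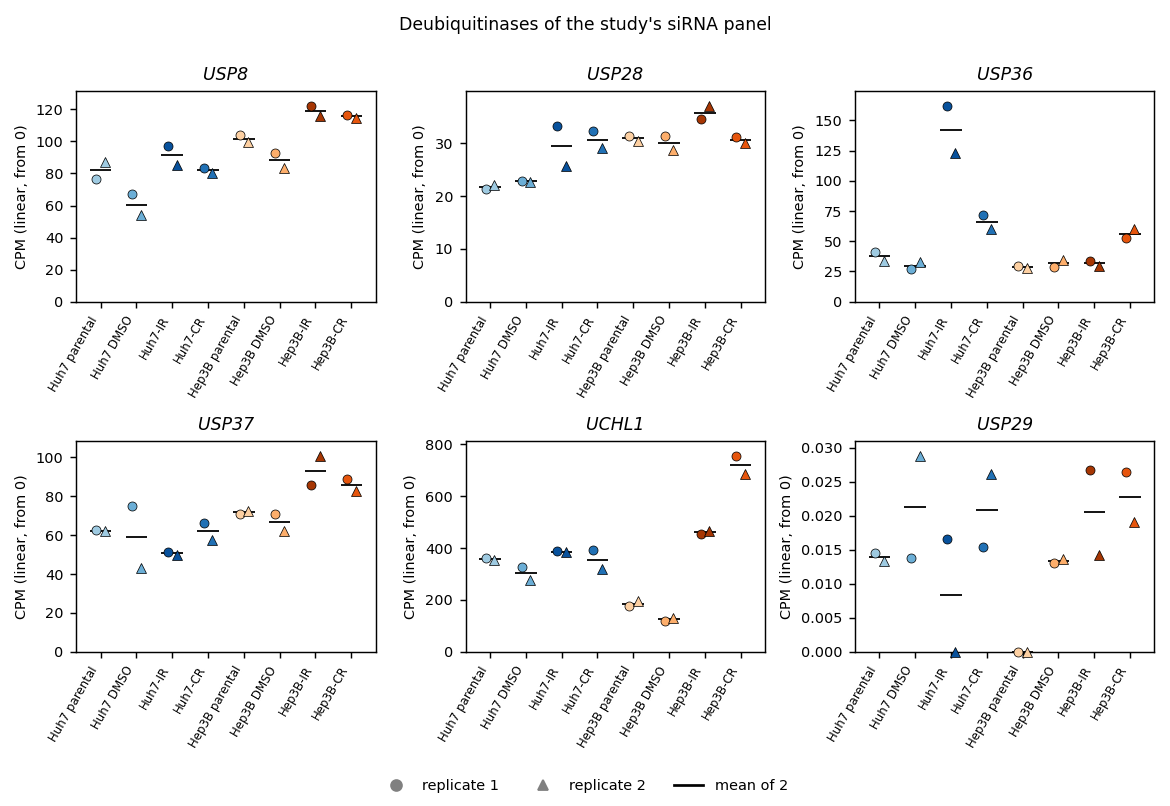
CPM (linear axes from 0) of the 6 DUBs of the siRNA panel in all 16 libraries by group; circles and triangles are replicates 1 and 2 and lines the mean of 2. USP36 stands highest in Huh7-IR and UCHL1 in Hep3B-CR cells, and no value of USP29 exceeds 0.0287 CPM, which is 2 reads.

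The DUBs that the study discusses beside this panel were USP7, USP10, USP14 and UCHL5. USP7, which acts on MDM2, fell from 214 and 221 CPM in Huh7 parental to 117 and 125 CPM in Huh7-IR and 147 and 142 CPM in Huh7-CR libraries. Its values of -0.84 and -0.58 on the log2 scale (SE 0.15), with limma adjusted p of 0.000412 and 0.00727, were called, the second at the threshold. The Huh7-CR call of USP7 was lost without Huh7 parental replicate 2 and without Huh7-CR replicate 2, at -0.56 in both cases, with quantile normalization, at -0.55, with a pseudocount of 4 CPM, at -0.57, and against DMSO libraries, at -0.34. USP7 was not called in Hep3B, with -0.34 (IR) and -0.27 (CR).

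USP10, a DUB bound to stress granule proteins, lay at 177 and 171 CPM in Huh7 parental and 95.1 and 94.4 CPM in Huh7-IR libraries, and it fell by 0.87 on the log2 scale there (SE 0.12, limma adjusted p = 8.1e-05). Elsewhere USP10 had -0.58 (Huh7-CR), -0.46 (Hep3B-IR) and -0.55 (Hep3B-CR), with limma adjusted p of 0.0026, 0.012 and 0.00401, each under the fold threshold. USP10 passed it in Huh7-CR cells with TMM factors, edgeR and DESeq2 (-0.67, -0.68 and -0.67) and without Huh7 parental replicate 2 (-0.60) or Huh7-CR replicate 1 (-0.59), and in Hep3B-CR cells with TMM factors, quantile normalization, edgeR and DESeq2 (-0.66, -0.58, -0.67 and -0.69). UCHL5 and USP14 are the DUBs of the set that bind the proteasome. UCHL5 fell from 120.4 and 113 CPM in Hep3B parental to 48.9 and 49.6 CPM in IR and 67.5 and 77.1 CPM in CR libraries, and from 80.8 and 81.8 CPM to 49.1 and 51.9 CPM in Huh7-IR libraries. UCHL5 had log2 fold changes of -0.68 (Huh7-IR), -1.23 (Hep3B-IR) and -0.69 (Hep3B-CR) (SE 0.14, limma adjusted p = 0.00141, 5.6e-05 and 0.00248), and -0.51 in Huh7-CR cells. That value was called with TMM factors, edgeR and DESeq2 (-0.60, -0.61 and -0.60), so that UCHL5 was then lower in all 4 lines, and without Huh7-CR replicate 1 (-0.58). Against the DMSO libraries the Hep3B-CR value of UCHL5 was -0.33 and no longer called. USP14 had 0.42 (IR) and 0.41 (CR) in Huh7 and 0.20 (IR) and 0.15 (CR) in Hep3B cells, and it was called in none. Against the DMSO libraries USP14 was called in Huh7, with 0.70 (IR, limma adjusted p = 0.000681) and 0.69 (CR, limma adjusted p = 0.00114).

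In Huh7-IR cells the highest log2 fold changes among DUB genes were those of USP49, USP36 and USP25, and in Huh7-CR cells those of USP54, USP25 and USP49. USP49, a histone H2B deubiquitinase, rose from 3.52 and 3.08 CPM in parental to 17.3 and 14.3 CPM in IR and 7.42 and 8.10 CPM in CR libraries. It rose by 1.96 and 1.03 on the log2 scale (SE 0.20) with limma adjusted p of 7.7e-06 and 0.00152, and the Huh7-CR value was 0.64 against DMSO libraries, whose 3.82 and 5.52 CPM lay above the parental ones. Of the exons of USP49, 64.7% overlap other genes, some on the same strand, so its reads may be shared with them. USP25, which edits TRAF proteins in inflammatory signaling, rose from 39.8 and 41.1 CPM to 149 and 109.9 CPM in IR and 105 and 93.8 CPM in CR libraries, or by 1.64 and 1.28 on the log2 scale (SE 0.14) with limma adjusted p of 2.2e-06 and 2.6e-05. For USP49 and USP25 the IR and CR libraries lay above every parental and DMSO library of Huh7. Both were picked for large changes against these parental libraries, so their separation is a description only. The share of all genes that separate in this way was not computed.

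The lowest log2 fold changes after OTUD7B were those of USP46 and USP13 in Huh7-IR cells and of USP43 and USP46 in Huh7-CR cells. USP46, a partner of WDR48 that acts on the phosphatase PHLPP and on glutamate receptors, fell from 212 and 233 CPM to 100.2 and 85.5 CPM in IR and 133 and 124 CPM in CR libraries. The log2 fold changes of USP46 were -1.25 and -0.79 (SE 0.16), with limma adjusted p of 4.2e-05 and 0.00204. USP13, which has been linked to autophagy, fell from 51.7 and 52.1 CPM to 17.3 and 26.4 CPM in Huh7-IR and 28.9 and 32.4 CPM in Huh7-CR libraries, with Huh7 DMSO libraries at 54.6 and 36.6 CPM. Its log2 fold change of -1.24 in Huh7-IR cells was called (SE 0.21, limma adjusted p = 0.000291). The Huh7-CR value of USP13, -0.75, was called with all libraries (limma adjusted p = 0.0121) and lost the call without Huh7 parental replicate 1 or 2, at -0.75 and -0.74, without Huh7-CR replicate 1, at -0.67, and against DMSO libraries, at -0.53. In Hep3B-CR cells USP13 went from 70.1 and 64.4 CPM to 33.4 and 39.6 CPM, a log2 fold change of -0.87 (limma adjusted p = 0.00585) that lost the call without Hep3B-CR replicate 1, at -0.75. In Hep3B-IR cells USP13 had -0.46 and was not called. Another gene on the same strand covers 30.6% of the exons of USP13, so reads of USP13 may be shared with it.

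The highest log2 fold changes in Hep3B, for IR as for CR cells, were those of USP43, UCHL1 and USP54. USP43, a USP of which little is known, rose from 2.75 and 2.14 CPM in parental to 16.2 and 12.4 CPM in IR and 14.4 and 11.9 CPM in CR libraries. In Huh7 it fell from 1.06 and 0.90 CPM to 0.10 and 0.11 CPM in IR and 0.046 and 0.052 CPM (3 and 4 reads) in CR libraries. USP43 had log2 fold changes of 2.15 (IR) and 2.04 (CR) in Hep3B and of -0.84 (IR) and -0.91 (CR) in Huh7 cells (SE 0.20), with limma adjusted p of 9.4e-06, 1.4e-05, 0.00284 and 0.00276. Because USP43 is low in Huh7, its values there turned on the scale, with -4.35 by edgeR on the reads, still called, and -0.30 with a pseudocount of 4 CPM, no longer called, in Huh7-CR cells. In Huh7-IR cells USP43 had -3.42 by edgeR, called, and -0.28 with that pseudocount, not called.

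USP53, a tight junction protein of the USP family known from inherited cholestasis, rose in Hep3B from 52.6 and 43.85 CPM to 86.6 and 73.0 CPM in IR and 136 and 113 CPM in CR libraries. This was 0.72 and 1.35 on the log2 scale (SE 0.15) with limma adjusted p of 0.00352 and 4.3e-05. In Huh7-IR cells USP53 fell from 82.0 and 94.2 CPM to 47.4 and 50.7 CPM, a log2 fold change of -0.83 (limma adjusted p = 0.000592), and in Huh7-CR cells, at 79.9 and 78.2 CPM, it was not called. OTUD5 (DUBA), which restrains interferon production through TRAF proteins, rose from 26.1 and 22.8 CPM in Hep3B parental to 51.2 and 39.97 CPM in IR and 50.3 and 51.7 CPM in CR libraries. OTUD5 thus rose by 0.86 and 1.03 on the log2 scale (SE 0.16), with limma adjusted p of 0.0014 and 0.000362.

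The lowest log2 fold changes in Hep3B-IR cells were those of UCHL5, OTUD7B and USP21, and in Hep3B-CR cells those of USP13, UCHL5 and USP4. USP21, a DUB of histones and of innate immune signaling, went from 26.2 and 22.7 CPM in Hep3B parental to 13.96 and 11.1 CPM in Hep3B-IR libraries, a log2 fold change of -0.92 (SE 0.20, limma adjusted p = 0.00364). USP4, which acts on TGF-β receptors and TRAF proteins, fell from 47.6 and 39.5 CPM to 24.6 and 26.96 CPM in Hep3B-IR and 28.2 and 26.3 CPM in Hep3B-CR libraries. USP4 thus fell by 0.73 and 0.65 on the log2 scale (SE 0.13), with limma adjusted p of 0.00103 and 0.0018. The Hep3B-CR call of USP4 was lost without Hep3B parental replicate 1, at -0.52, and against DMSO libraries, at -0.50, and the Hep3B-IR call was lost against DMSO libraries, at -0.57.

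Whether the change with resistance differed between the lines was tested as an interaction, the change averaged over both Huh7 resistant lines minus that averaged over both of Hep3B. It was called for 16 DUB genes, against 29.4% of all genes, with 9 higher (16.3%) and 7 lower (13.1%) in Huh7. The median difference over the 62 genes was -0.066, beside 0.049 for all genes. USP43 (-2.97, SE 0.24), UCHL1 (-1.59, SE 0.16) and USP53 (-1.52, SE 0.19) had the lowest differences, with limma adjusted p of 4e-06, 2.6e-05 and 9.5e-05. USP49 (1.35, SE 0.24), USP4 (1.34, SE 0.16) and USP12 (1.20, SE 0.24) had the highest, with limma adjusted p of 0.0015, 6.9e-05 and 0.00276. USP25 followed at 1.18 (SE 0.17, limma adjusted p = 0.000353), and was 0.74 when the DMSO libraries were the reference.

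USP4 moved in opposite directions, since it rose from 34.1 and 32.0 CPM in Huh7 parental to 56.3 and 54.8 CPM in Huh7-IR libraries, a log2 fold change of 0.73 (limma adjusted p = 0.000422), while it fell in Hep3B as given above. The Huh7-IR value of USP4 was 0.54 with TMM factors, 0.55 with quantile normalization or edgeR and 0.53 with DESeq2, each under the fold threshold. USP12, which like USP46 works with WDR48, went from 70.6 and 66.3 CPM in Huh7 parental to 98.7 and 131 CPM in Huh7-CR libraries, a log2 fold change of 0.72 (SE 0.20, limma adjusted p = 0.0112). In Hep3B it went from 44.55 and 42.6 CPM in parental to 20.4 and 31.4 CPM in IR libraries, -0.76 (limma adjusted p = 0.0109). The Huh7-CR call of USP12 was lost without Huh7 parental replicate 2, at 0.68, without Huh7-CR replicate 2, at 0.52, and against DMSO libraries, at 0.578. The Hep3B-IR call was lost without either Hep3B parental replicate, at -0.73 and -0.79, and without Hep3B-IR replicate 1, at -0.46.

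**Figure D4:**
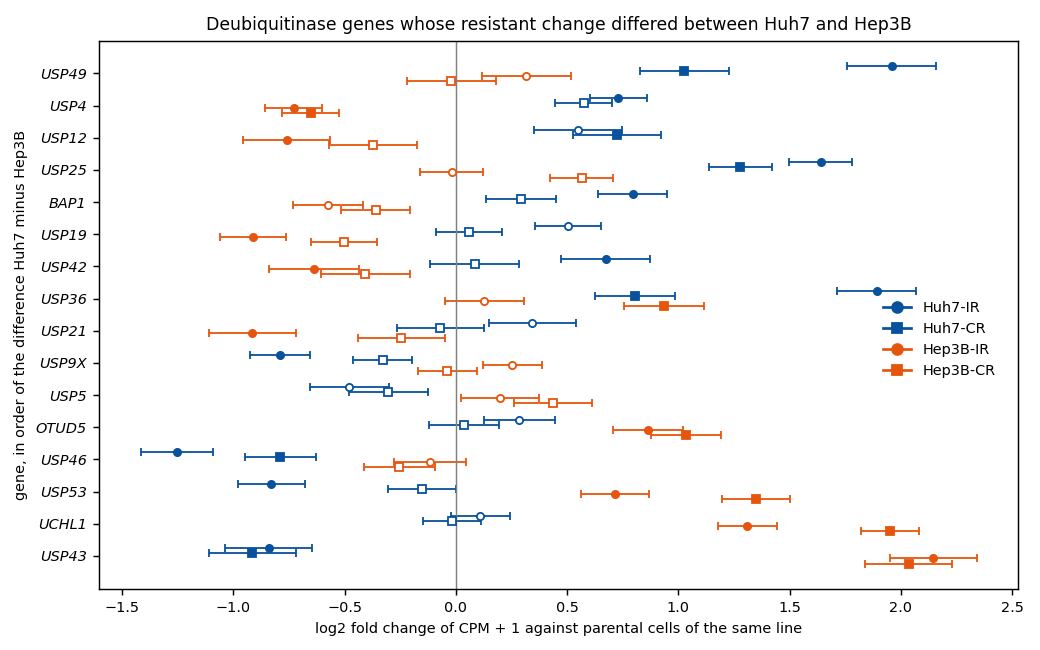
Log2 fold change of CPM + 1 against the parental cells of the same line, with its SE (bars, n = 2 libraries a group), for the 16 DUB genes whose change differed between the lines; blue is Huh7 and orange Hep3B, circles are IR and squares CR cells, and filled symbols are called. USP43, UCHL1 and USP53 at the bottom lie to the right in Hep3B, and USP49, USP4, USP12 and USP25 at the top lie to the right in Huh7.

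Between the regimens, 6 DUB genes were called in Huh7-IR against Huh7-CR cells, where 13.7% of all genes were called, with 4 higher (8.23%) and 2 lower (5.43%). USP36 had the largest difference, 1.09 (SE 0.18, limma adjusted p = 0.00315), followed by USP49 with 0.93, USP35 with 0.82 and USP30 with 0.64, while USP53 had -0.68 and OTUD7B -0.59. USP35 and USP30 are both enzymes of mitochondria. Of these, USP30 had 0.84 and USP35 1.04 in Huh7-IR against parental cells, and they lost that call against DMSO libraries (USP30, 0.29) and without Huh7 parental replicate 2 (USP35, 0.77). With TMM factors or edgeR the split was 2 higher and 2 lower, and with DESeq2 it was 3 and 4. Most of these calls turned on single libraries, and the number called was 3 without Huh7-IR replicate 1 and 1 when either replicate of Huh7-CR (1 or 2) was left out. OTUD7B had -0.38 without Huh7-IR replicate 2, and no longer passed. In Hep3B-IR against Hep3B-CR cells 6 DUB genes were called, where 11.7% of all genes were. All 6 were lower in IR (6.41% of all genes) and 0 higher (5.33%). They were USP36 with -0.81, USP21 with -0.67, UCHL1 with -0.64, USP53 with -0.63, USP47 with -0.63 and USP25 with -0.58. At an unadjusted p under 0.05 in limma, 11 were lower and 4 higher, and edgeR called 0 higher and 4 lower. With quantile normalization 1 was higher and 6 lower, and with DESeq2 1 and 5. The number called fell to 3 and 0 when replicates 1 and 2 of Hep3B-IR were left out in turn, and to 1 and 3 when those of Hep3B-CR were. Read against each other, USP36 was thus higher in IR than in CR cells of Huh7 and lower in IR than in CR cells of Hep3B. The call of USP36 in Huh7 was kept in each alternative run, and the one in Hep3B was lost without Hep3B-IR replicate 2 (-0.70) and without Hep3B-CR replicate 2 (-0.71).

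The solvent comparison gave the background without Sorafenib. Of the 62 DUB genes, limma called 0 in Huh7 DMSO against parental cells, where 4.83% of all genes were called, and 0 in Hep3B, where 1.58% were. Of all genes, 3.46% were higher and 1.37% lower in the Huh7 and 1.07% higher and 0.513% lower in the Hep3B comparison. At an unadjusted p under 0.05, with no fold threshold, there were 8 and 9 genes, edgeR called 0 and 0, and DESeq2 called 0 and 1. Without Huh7 DMSO replicate 1, the Huh7 count was 9, and DUB genes differed most between the replicates of that group, with an SD of 0.453 on the log2 scale against 0.123 to 0.413 in the other groups. USP8 had the lowest unadjusted p in Huh7 (log2 fold change -0.43, limma adjusted p = 0.0713) and UCHL1 the lowest in Hep3B.

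The lines differed in their DUB genes before any Sorafenib. In Huh7 parental against Hep3B parental cells 25 were called, against 42.6% of all genes, with 13 higher (18.9%) and 12 lower (23.7%), and the median was -0.021, beside -0.047 for all genes. USP44, a regulator of the spindle checkpoint and of histone H2B, was at 0.073 and 0.15 CPM in Huh7 parental and 30.1 and 28.85 CPM in Hep3B parental libraries. USP44 stayed between 0.086 and 0.78 CPM in the other Huh7 libraries and between 20.9 and 39.2 CPM in the other Hep3B libraries, so the lines did not overlap. Its log2 difference was -4.78 (SE 0.23, limma adjusted p = 8e-09), and it was -7.94 with edgeR on the reads, and -3.03 with a pseudocount of 4 CPM. USP49, the closest relative of USP44, was also lower in Huh7 (-2.13, SE 0.20, limma adjusted p = 3.1e-06), as was USP18, which removes the ubiquitin-like ISG15, with 2.07 and 1.58 CPM in Huh7 and 9.10 and 9.19 CPM in Hep3B (-1.85, SE 0.37, limma adjusted p = 0.0012). With a pseudocount of 4 CPM the value of USP18 was -1.18. USP18 has a near-identical copy, USP41, which was not analysed here, and reads that match both would not have been counted.

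OTUD1, OTUD5 and UCHL3 were the DUB genes furthest above in Huh7. OTUD1, which is induced in innate immune responses, was at 31.1 and 24.6 CPM in Huh7 and 5.48 and 3.47 CPM in Hep3B parental libraries (log2 difference 2.41, SE 0.41, limma adjusted p = 0.000406). OTUD5 was at 99.1 and 95.9 CPM in Huh7 (1.955, SE 0.16, limma adjusted p = 8.6e-07) and so stood above the level it reached in resistant Hep3B cells. UCHL3 was at 80.4 and 82.9 CPM in Huh7 and 23.7 and 24.05 CPM in Hep3B parental libraries (1.73, SE 0.19, limma adjusted p = 1.2e-05), and 68.6% of its exons overlap other genes.

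Near relatives did not always move together, and the pairs given here were named because their calls were opposite. Other pairs were called higher together, as USP53 and USP54 were in Hep3B-IR and Hep3B-CR cells. In Huh7-IR cells the same held for JOSD1 with JOSD2 and for USP36 with USP42, but the calls of JOSD2 and USP42 were unstable. JOSD2, at 0.47 to 1.02 CPM in parental libraries, lost its call against DMSO libraries (0.16). It also lost it with TMM factors (0.75), quantile normalization (0.42), edgeR (1.37) and DESeq2 (1.35). USP42 lost its call with TMM factors (0.48), quantile normalization (0.40), edgeR (0.56) and DESeq2 (0.55), and had 0.27 without Huh7-IR replicate 1. In Huh7-IR cells USP53 was lower and USP54 higher, USP43 lower and USP31 higher (-0.84 and 0.70), and UCHL5 lower and BAP1 higher (-0.68 and 0.79). BAP1 is the nuclear histone H2A deubiquitinase and a tumor suppressor, and it went from 52.9 and 43.3 CPM to 79.7 and 88.1 CPM in Huh7-IR libraries (SE 0.16, limma adjusted p = 0.000948). USP31 went from 41.7 and 36.3 CPM to 72.4 and 56.3 CPM, and lost the call without Huh7-IR replicate 1, at 0.52, and with TMM factors (0.51), quantile normalization (0.54), edgeR (0.52) and DESeq2 (0.51). In Huh7-CR cells USP12 was higher and USP46 lower, although both work with WDR48, and the interaction of the lines was also opposite for this pair, 1.20 and -0.84 (limma adjusted p = 0.00276 and 0.00692).

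Grouped by known role, DUB genes gave called changes in both directions. Of all genes, 31.1% were higher and 17.8% lower in IR and 20.9% and 13.6% in CR cells of Huh7, and 15.7% and 11.4% in IR and 20% and 12.3% in CR cells of Hep3B, and the counts of these small lists are a description to be read against those shares. Of 14 tested DUBs of histones and DNA damage, 2 were higher and 2 lower in IR and 1 and 2 in CR cells of Huh7, and 0 and 2 in IR and 1 and 0 in CR cells of Hep3B. Of 11 in inflammatory and innate immune signaling, 2 and 2, 1 and 2, 1 and 3, and 1 and 3 were higher and lower in the same order. Of 8 at endosomes and membrane receptors the counts were 2 and 2, 1 and 1, 0 and 2, and 0 and 1. Of 11 in mitochondria, autophagy and protein quality control they were 4 and 3, 1 and 1, 1 and 1, and 1 and 1. The 3 genes listed as without protease activity or as splicing factors (USP39, USP53 and USP54) gave 1 higher and 1 lower, 1 and 0, 2 and 0, and 2 and 0.

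DUBs outside these families, 23 tested of 24 listed, such as the metalloproteases of the proteasome and the COP9 signalosome, gave 5 higher and 4 lower, 3 and 3, 3 and 2, and 3 and 3 (IR and CR of Huh7, then IR and CR of Hep3B). Of 30 genes for partners and substrates of DUBs, 7 and 7, 4 and 7, 2 and 7, and 8 and 9 were higher and lower in the same order, beside the same shares of all genes. Of all genes, 5.28% were higher and 2.88% lower in all 4 lines. STAM and STAM2, endosomal adaptors that bind USP8, were higher in all 4 lines, with log2 fold changes of 0.68 to 1.395 for STAM and 0.78 to 1.32 for STAM2. FANCD2, the DNA repair protein that USP1 deubiquitylates, was lower in all 4, between -1.69 and -0.88, with -0.95 in Hep3B-IR cells. Of 6 genes for ubiquitin and its activating enzymes, 1 was higher and 3 lower in Huh7-IR and 1 was lower in Huh7-CR cells, and the median log2 fold changes in Hep3B were 0.042 (IR) and 0.097 (CR).

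Of the 12 genes of HIF1α and its degradation, 1 was higher and 5 lower, 0 and 1, 1 and 1, and 2 and 2 in the order used above, beside the shares of all genes given for the role groups. EGLN1, the main prolyl hydroxylase that marks HIF1α, was the only one called in all 4 lines (2.88% of all genes were lower in all 4) and had log2 fold changes of -2.83 (IR) and -1.28 (CR) in Huh7 and -1.72 (IR) and -1.90 (CR) in Hep3B cells (SE 0.17), of which the highest limma adjusted p was 0.000119. HIF1A itself, named here after its values were seen, had -0.95 (IR) and -0.50 (CR) in Huh7 and 0.87 (IR) and 0.49 (CR) in Hep3B cells (SE 0.22), with limma adjusted p of 0.00278, 0.0899, 0.00967 and 0.0981. Its change differed between the lines (interaction -1.40, SE 0.27, limma adjusted p = 0.00211). The study reported unchanged HIF1A mRNA in resistant Huh7 cells by quantitative RT-PCR. It reported more HIF1α protein in the resistant cells of both lines by immunoblot. The lower HIF1A value of Huh7-IR cells here differs from that RT-PCR result, and the reason was not tested. Values of EGLN1 and HIF1A were not followed under the alternative settings.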

How the data were processed

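Poly(A) RNA of 16 libraries of Huh7 and Hep3B cells was sequenced. Per the methods and the labels, the authors mapped single-end reads to hg19 with STAR, kept unique hits and counted reads over exons of RefSeq mRNAs with QuasR; the strand setting of the counting is not given in the sources used here. The authors deposited CPM of 26258 genes under numeric gene IDs, and 26111 IDs had a symbol in the reference table. Whole reads were recovered from the steps of these values (100% whole within 0.05 reads). Only reads with 1 place in the genome were counted, so genes with near-identical copies are understated.

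Samples were grouped by their titles, 2 libraries in each of 8 groups. Log2(CPM + 1) was fitted with limma 3.58.1 in R 4.3.3 (trend, 15019 genes that reached 1 CPM in 2 or more libraries). Its p-values were Benjamini-Hochberg adjusted over all 15019 genes. The fit was run on simulated data with an equal spread in every group. Such a run cannot show how the fit behaves with the larger spread of Huh7-IR and Huh7 DMSO replicates. Called genes passed 0.05 for the adjusted p and 0.58 for the size of the log2 fold change, the fold threshold of the study's methods. Alternatives were pseudocounts of 0.25 and 4 CPM, no filter, TMM factors, quantile normalization, edgeR 4.0.16 and DESeq2 1.42.0 on the recovered reads, a model of each line alone, a replicate block, other thresholds, DMSO libraries as reference (alone or with the parental ones), the USP17L genes and USP6NL as members, and leaving out each library in turn. Of 28 pairs of groups, 13 had correlations of their replicate deviations above 0.1 (-0.220 to 0.439). The highest were 0.439 for Huh7-IR with Huh7-CR and 0.415 for Huh7 DMSO with Hep3B DMSO. Replicate numbers thus did not pair all groups, the main model held no replicate term, and whether some groups shared a batch was not tested. Coordinates and exon overlaps are from GENCODE (GRCh37), and start site windows from RefSeq on GRCh38.p14. Other named genes with exons that overlap other genes included USP47 (56.8%, opposite strand), USP37 (38%, opposite strand) and USP31 (25.4%, both strands).

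Members and gene lists were chosen with earlier results of these data known, the lists by hand from general knowledge. Named were the siRNA panel and DUBs discussed by the study, genes called the same way in all 4 comparisons, the 3 highest and 3 lowest called changes of each comparison, untested members, paralogs called in opposite directions, USP18 with USP41, the 3 highest levels per length, and partners and HIF1α genes called in all 4 comparisons. OTUD5 in Hep3B, USP30, USP47, USP25 and USP53 where they were not among these were named after their values were seen. Most genes were thus named by the same values, and libraries without overlap between groups are a description of them, not separate support. 1 Y-linked gene was left out.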

Additional observations from a re-analysis of the deposited data

Results flagged for a closer look

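The change with resistance differed between Huh7 and Hep3B cells, by a test of the difference itself (limma interaction, adjusted over 15019 genes), for 16 deubiquitinase genes, against 29.4% of all genes. Values are the mean log2 fold change of Huh7-IR and Huh7-CR cells minus that of Hep3B-IR and Hep3B-CR cells. The lower values in Huh7 were -2.97 for USP43, -1.59 for UCHL1, -1.52 for USP53, -0.84 for USP46, -0.79 for OTUD5, -0.71 for USP5 and -0.67 for USP9X. The higher values were 0.72 for USP21, 0.82 for USP36, 0.90 for USP42, 0.99 for USP19, 1.01 for BAP1, 1.185 for USP25, 1.20 for USP12, 1.34 for USP4 and 1.35 for USP49. USP43, UCHL1, USP53, USP46, USP49, USP4, USP12, USP25, BAP1 and USP19 kept the call under the alternatives run.

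The others lost it when single libraries were left out. OTUD5 had -0.69 without Hep3B parental replicate 2, USP9X had -0.55 without Huh7 parental replicate 2, USP36 had 0.67 without Huh7 parental replicate 2 and 0.79 without Hep3B parental replicate 1, and USP42 had 0.89 and 0.88 without the same libraries. USP5 lost the call without 7 of the 12 libraries of the comparison, with values of -0.72 to -0.55, and had -0.23 against DMSO libraries. USP21 lost it without 9 of the 12, with values of 0.52 to 0.81. Hepatocyte markers fell by different amounts in the lines (85.0 to 2474 CPM summed in resistant Huh7 and 1028 to 8315 CPM in resistant Hep3B libraries), and their part in these differences was not tested.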

How the results depend on the processing

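Of 116 called results of single genes, 64 kept the call under each alternative run, 52 lost it under at least 1 and 0 changed direction. Of 25 results of single genes that were not called, 9 were called under at least 1 alternative. All of these results are of DUB genes. The values of STAM, STAM2, FANCD2, EGLN1 and HIF1A are from the main fit alone and were not followed under the alternatives. With 2 libraries a group the calls of smaller changes turn on single libraries, and depth limits what can be said of USP29 and of the other 5 untested genes. Of the counts of called genes, 197 values under an alternative lay within 1.5 times the reported count and 25 did not. The count in Huh7-CR cells was 22 with no fold threshold. That in Huh7-IR against Huh7-CR cells was 1 in a model of each line alone and 1 to 8 with 1 library left out in turn. That in Hep3B-IR against Hep3B-CR cells was 3 with TMM factors and 0 to 3 with 1 library left out. The Huh7 DMSO count was 1 at an unadjusted p with the fold threshold and 0 to 9 with 1 library left out, and the Hep3B DMSO count was 1 in a model of each line alone, 1 with DESeq2 and 2 at an unadjusted p with the fold threshold. Genes higher in all 4 comparisons were 1 (USP54) with DMSO libraries as reference and 1 to 2 with 1 library left out, and genes lower in all 4 were 0 with a pseudocount of 4 CPM, 2 (OTUD7B and UCHL5) with TMM factors, edgeR or DESeq2 and 0 to 2 with 1 library left out. The cause of these shifts was not tested. With a replicate block the counts were as reported, 24 (IR) and 12 (CR) for Huh7 and 15 (IR) and 12 (CR) for Hep3B. The exception was 5 in Huh7-IR against Huh7-CR cells. Whether replicate numbers mark a batch shared by some groups was not tested.

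Only uncalled values changed direction. In Huh7-IR cells USP8 was -0.040, -0.046 and -0.063 and UCHL1 -0.087, -0.088 and -0.10 (-0.1047) with TMM factors, edgeR and DESeq2. In Huh7-CR cells USP8 was -0.094, -0.0515, -0.10 (-0.1018) and -0.092 with TMM factors, quantile normalization, edgeR and DESeq2 and -0.089 to 0.097 with 1 library left out, USP37 was 0.11 against DMSO, 0.051 against parental and DMSO libraries together and -0.11 to 0.090 with 1 library left out and UCHL1 0.23, 0.11 and -0.17 to 0.13 in the same order and 0.039 with quantile normalization. In Hep3B-CR cells USP28 was 0.026 against DMSO, 0.0061 against both references together and -0.037 to 0.011 with 1 library left out and USP14 -0.026 to 0.33 with 1 library left out.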
